A study of Mus musculus with 16 samples.

Results

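RNA polymerase II (RNAPOL2) does not stop where an mRNA ends. It transcribes past the poly(A) signal, the nascent RNA is cut there by the cleavage and polyadenylation machinery, and the exonuclease XRN2 degrades the RNA still attached to the polymerase until the enzyme is released. Polymerases slow down and gather in this termination zone, which lies past the annotated gene end and need hold neither a promoter nor an enhancer. The peaks described here were chosen by their position past gene ends, and termination itself was not measured. They came from the RNAPOL2 list of a chromatin immunoprecipitation (ChIP-seq) study of mouse clear cell sarcoma (mCCS), a tumor driven by the fusion oncoprotein EWSR1::ATF1 (EA1). A peak was taken if it missed the window within 3 kb of every transcription start site (TSS), shared no base with a peak of H3K27ac, the acetyl mark of active promoters and enhancers, and overlapped the 5 kb downstream of the annotated end of a protein-coding gene. Of 20375 RNAPOL2 peaks, 5720 missed the promoter windows, 3157 of those also missed H3K27ac, and 1323 of those were past-end peaks, which is 6.49% of the list.

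All 16 samples were tumors of the genotype EWSR1::ATF1, raised in mice of mixed background that included C57Bl/6, in which a V5-tagged human fusion was expressed from the Rosa26 promoter after TATCre protein was injected into the hindlimb of young mice. The labels give 4 samples for V5, which marks the fusion, 4 for RNAPOL2, 4 for H3K27ac and 4 for input chromatin, and no tumor without the fusion was compared. The antibody against RNAPOL2 recognized a phosphorylated form of the polymerase. The data used here are 1 deposited list of peaks per antibody, with 20375 RNAPOL2, 27552 H3K27ac and 10665 V5 peaks. The paper states that raw reads were deposited too, and they were not used here. A peak carries its coordinates and a whole-number score of unstated scale, which allows comparisons among the peaks of 1 antibody but not between antibodies. The lists hold no value per tumor and no read count. A rough target depth is stated in the methods, but what each sample reached is not in the lists. No spread between tumors can be given from them, and the Wilson 95% intervals in parentheses cover counting error only. The tumors were analyzed in bulk, so that polymerase in fewer cells and less polymerase per cell cannot be told apart. Among cell type markers, RNAPOL2 promoter peaks were found at 2 of 8 melanocytic and neural crest genes (Pmel and Mitf), 1 of 8 skeletal muscle genes (Tnnt3), 1 of 6 macrophage and leukocyte genes (Cd68), 1 of 4 endothelial genes (Kdr), 2 of 4 fibroblast genes (Col1a1 and Col1a2) and 0 of 2 keratinocyte genes. H3K27ac promoter peaks were found at 3 of 8, 0 of 8, 5 of 6, 3 of 4, 4 of 4 and 1 of 2 of them, in the same order, so acetylation marked genes of leukocytes, endothelium and fibroblasts too.

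The past-end peaks stood in the first kilobases after genes whose promoters carried polymerase. Each peak was assigned to the gene whose annotated end (GENCODE vM21, GRCm38, the assembly also named mm10) was nearest to its middle, which gave 1143 genes. Of these genes 979 had 1 peak, 148 had 2 and 16 had 3. The middle of the peak lay a median of 1192 bp past the gene end, with quartiles of 577 and 2292 bp. The annotated end itself was covered by 360 peaks (27.2%), while 498 began within 1 kb past it, 304 began 1 to 3 kb past it and 161 began farther out. Where gene ends crowd together the assignment is uncertain. Of the 1323 peaks, 244 (18.4%) lay in the windows of more than 1 gene and 339 (25.6%) overlapped another protein-coding gene. An exon of any gene was touched by all but 766 peaks (57.9%).

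To show the sequence over which these polymerases stood, the first 100 bases past the annotated end are given for 6 of the 10 genes with the highest-scored past-end peaks, all covered by those peaks. Of the other 4, Kdelr3 was left out because these bases lie in an exon of Ddx17, Cyp4f18 for lack of an RNAPOL2 promoter peak, Cyth4 because its peak begins farther out, and Mdfi as the lowest in score. They were read from GRCm38 on the strand of the gene, 5′ to 3′, and capitals mark runs of at least 5 bases made only of G and T, since a GU-rich element downstream of the cut is part of a textbook poly(A) site.
Sparc, chr11:55394400-55394499, minus strand: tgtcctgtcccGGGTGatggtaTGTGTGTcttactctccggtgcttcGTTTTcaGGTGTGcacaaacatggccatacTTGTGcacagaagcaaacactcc
Nfe2l2, chr2:75675413-75675512, minus strand: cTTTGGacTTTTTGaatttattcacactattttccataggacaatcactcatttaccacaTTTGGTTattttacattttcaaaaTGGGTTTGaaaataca
Tob1, chr11:94215496-94215595, plus strand: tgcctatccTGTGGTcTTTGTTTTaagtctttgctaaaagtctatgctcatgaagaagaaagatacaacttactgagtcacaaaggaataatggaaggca
Serpinh1, chr7:99345276-99345375, minus strand: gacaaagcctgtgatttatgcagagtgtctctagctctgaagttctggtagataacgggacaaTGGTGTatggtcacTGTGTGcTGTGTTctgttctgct
Ywhaz, chr15:36770670-36770769, minus strand: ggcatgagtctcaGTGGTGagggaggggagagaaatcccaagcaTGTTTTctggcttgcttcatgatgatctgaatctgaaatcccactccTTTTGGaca
Tle3, chr9:61418498-61418597, plus strand: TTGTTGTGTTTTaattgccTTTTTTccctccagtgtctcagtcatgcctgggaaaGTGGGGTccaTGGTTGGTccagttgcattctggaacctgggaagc

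The 6 genes shown had 2 to 5 such runs, while Cyp4f18 had 2, Cyth4 and Mdfi had 1 each and Kdelr3 had 0. Such runs were nearly as common at genes without a past-end peak. At least 1 run lay in these 100 bases at 96.9% of the 1143 genes (95.8 to 97.8), at 94.7% of genes that had a promoter peak and room for a past-end peak but lacked one, and at 93.2% of all protein-coding genes, with medians of 18, 17 and 16 bases in runs. The poly(A) signal hexamer was searched as AATAAA or ATTAAA on the gene strand in the last 50 bases of the gene. It was about as frequent at genes with a past-end peak as at the genes that lacked one. Among all protein-coding genes it was less frequent. It was present at 77.9% of genes with a past-end peak (75.4 to 80.2), at 78.4% of the genes that lacked one (77.4 to 79.3) and at 71.9% of all protein-coding genes. Of the 6 genes shown, Sparc, Nfe2l2 and Ywhaz held AATAAA and Tob1 held ATTAAA in the last 30 bases, and Serpinh1 and Tle3 held neither there. These matches describe letters in a window, not used sites.

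The pile-up just past gene ends was seen without the 5 kb limit of the selection. RNAPOL2 peaks without H3K27ac were counted in bins of 0.5 kb from 10 kb inside each gene to 20 kb past its end, leaving out bins that touch a promoter window. Among genes with an RNAPOL2 promoter peak, 1.17% had such a peak 10 kb inside the gene (0.904 to 1.52), 3.01% had one 5 kb inside, and 9.88% had one in the last bin of the gene. The share was 13.4% in the first bin past the end and highest from 0.5 to 1 kb past it, at 1067 of 6965 genes or 15.3% (14.5 to 16.2). Farther out it was 9.60% at 2 kb, 3.41% at 4.5 kb and 1.24% at 10 kb. Genes without an RNAPOL2 promoter peak had 0.561% in the bin from 0.5 to 1 kb (0.405 to 0.775). H3K27ac peaks, which the selection removed only where they met RNAPOL2, lay between 2.69% and 3.94% in all bins around the genes with a promoter peak, and V5 peaks between 0.427% and 0.817%.

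**Figure D1:**
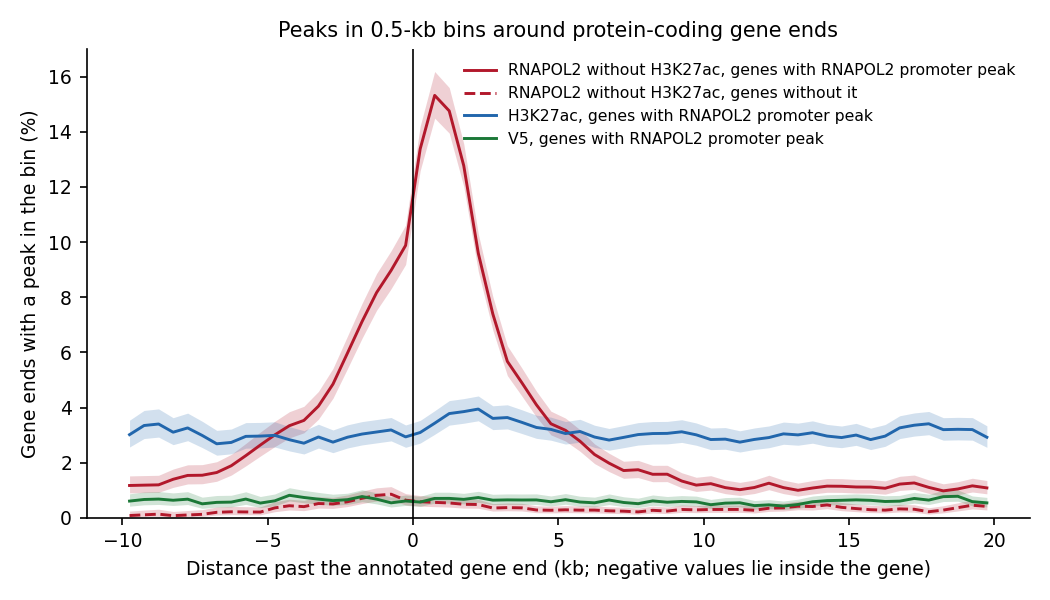
Share of protein-coding gene ends with a peak in each 0.5-kb bin (y axis, %) against distance past the annotated end (x axis, kb), for RNAPOL2 peaks without H3K27ac, H3K27ac peaks and V5 peaks; bands are Wilson 95% intervals. The RNAPOL2 curve of genes with an RNAPOL2 promoter peak is highest at 15.3% from 0.5 to 1 kb past the end, while H3K27ac stays between 2.69% and 3.94% and V5 at or below 0.817%.

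Most of the 10 highest-scored peaks covered the annotated end of a gene with a strong promoter peak. The first in rank, with a score of 943, covered the end of Sparc, a secreted collagen-binding glycoprotein, at chr11:55392341-55396410, and reached from 1.91 kb inside the gene to 2.16 kb past it. Nfe2l2, the transcription factor of the oxidative stress response, followed with a score of 928 and a peak of 13.6 kb (chr2:75666081-75679700) that also lay in the window of Hnrnpa3. Kdelr3, a receptor that returns chaperones to the endoplasmic reticulum, had a peak of 14.7 kb and score 912 (chr15:79523841-79538530), which ran across the neighboring gene Ddx17. For these 2 wide peaks the polymerase of the neighbor cannot be told apart from that of the named gene.

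Tob1, an antiproliferative protein that recruits the deadenylase complex, had a score of 790 over 2.68 kb (chr11:94215221-94217900), and its promoter peak score of 11869 was the highest of any gene with a past-end peak. Serpinh1, the collagen chaperone of the endoplasmic reticulum, had a score of 474 over 5.72 kb, and Ywhaz, a phosphoserine-binding adaptor, had 448 over 5.14 kb that extended 4.47 kb past the end. Tle3, a Groucho corepressor, had 400 over 5.84 kb, and Mdfi, an inhibitor of myogenic transcription factors, had 395 over 4.17 kb. Like Tob1, these 4 covered the annotated end. The other 2 of the 10 highest differed. The peak at Cyp4f18, a cytochrome P450 gene, was 610 bp wide with a score of 488 and its gene had no RNAPOL2 promoter peak, and the peak at Cyth4, an exchange factor for ARF proteins, was 670 bp wide with a score of 398 and began 2.64 kb past the end.

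The widest peaks covered long stretches of the gene as well as the zone past it. The peak at Adarb1, an RNA-editing adenosine deaminase, was 21.3 kb wide, of which 17.0 kb lay inside the gene and 4.26 kb past it. Plec, the cytoskeletal linker plectin, had 15.2 kb, of which 13.7 kb lay inside the gene, and Itpr2, a calcium channel of the endoplasmic reticulum, had 10.8 kb with 4.80 kb past the end. Among the 16 genes with 3 peaks, the highest summed scores were at Gramd4, Il12rb2, Agfg1, Kank4 and Slc8b1. At Agfg1 the 3 peaks began 0.169, 2.93 and 4.50 kb past the end with scores of 80, 56 and 117. Il12rb2, the interleukin 12 receptor chain, had no RNAPOL2 promoter peak. Its 3 peaks overlapped another protein-coding gene, as did those of Slc8b1 and some of those of Gramd4.

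**Figure D2:**
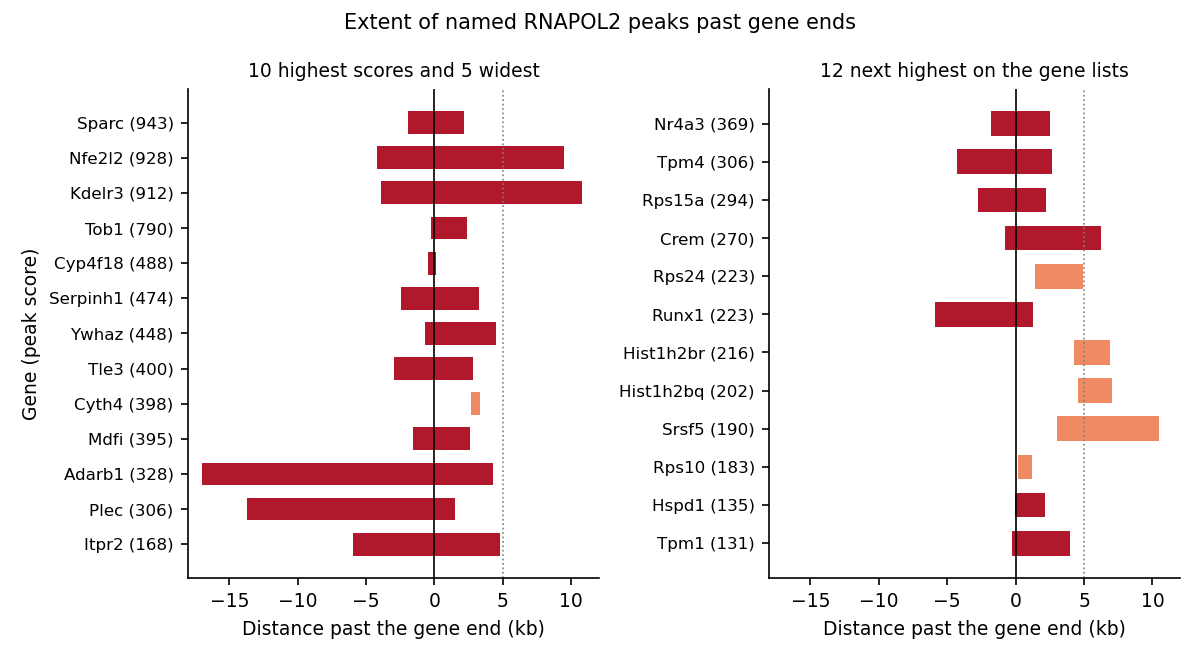
Extent of named past-end RNAPOL2 peaks (bars, kb from the annotated gene end at 0; dotted line at 5 kb) with peak scores in parentheses, for the 10 highest and 5 widest on the left and the next 12 by score on the gene lists on the right; dark bars cover the gene end and light bars begin past it. Nfe2l2 and Kdelr3 extend 9.43 and 10.8 kb past the end, while most of the Adarb1 and Plec peaks lies inside the gene.

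Past-end peaks were weak peaks of their list. Their median score was 54, with quartiles of 46.5 and 89 and a range of 23 to 943, and 96.8% scored below the list median of 246. Gene-body RNAPOL2 peaks without H3K27ac, which overlap a protein-coding gene but no window past an end, had a median of 47 (quartiles 39 and 68). Acetylated RNAPOL2 peaks in the windows past gene ends had 107 (63 and 217), and promoter peaks 543. The median width was 1060 bp, against 900 bp for gene-body and 1220 bp for acetylated past-end peaks, and 66 past-end peaks (4.99%) were at least 5 kb wide. Since peaks of 1 list were sorted into these classes by position and acetylation, their scores are given as a description.

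Score and width went together, and peaks that covered the gene end had the highest medians of both. Peaks that covered the annotated end had a median score of 98 and a median width of 2335 bp. The values were 54 and 1015 bp for peaks that began within 1 kb, 47 and 790 bp for those that began 1 to 3 kb past the end, and 47 and 840 bp for those farther out. Over the 1323 peaks, the Spearman correlation of score was 0.723 with width and -0.456 with the distance at which the peak began. Score and width had a Spearman correlation of 0.574 over the 1677 gene-body peaks. A wider peak covers the end, or begins near it, more readily, so the split by position fixes part of the ranking of widths and of the relation with distance. Beyond that, the cause of the relations was not tested.

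**Figure D3:**
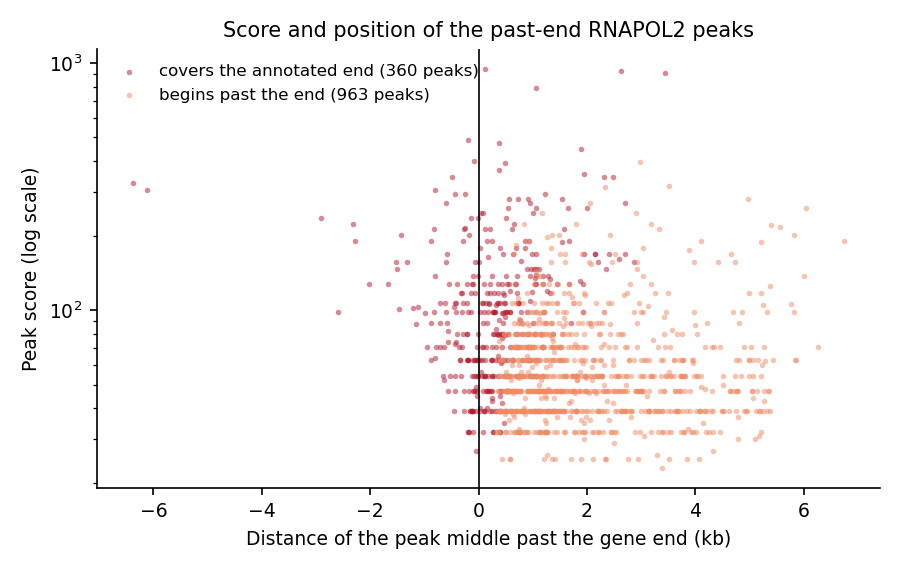
Score of each past-end RNAPOL2 peak (y axis, log scale) against the distance of its middle from the annotated gene end (x axis, kb; negative values lie inside the gene). The 360 dark points cover the end and hold the highest scores, with a median of 98, and the 963 light points begin past it.

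At most genes no further RNAPOL2 peak followed the first past-end peak closely, but at some it was the start of a longer stretch. Runs were built outward from the first past-end peak of each gene by joining any RNAPOL2 peaks, promoter and acetylated peaks included, with gaps of at most 1 kb. The runs reached a median of 2.06 kb past the end (quartiles 1.33 and 3.27 kb), and 199 genes (17.4%) had a run of 2 or more peaks. A reach over 5 kb was seen at 120 genes (10.5%). The longest, at Nfe2l2 (17.3 kb), Map6 (16.4 kb) and Agfg1 (13.9 kb in 5 peaks), all entered another protein-coding gene. Among the 838 genes whose run entered no other protein-coding gene, the median reach was 1.91 kb and 52 exceeded 5 kb. The longest of these belonged to Zfp207, which encodes a spindle assembly protein (12.9 kb in 3 peaks), and Cdc42, a small GTPase of cell polarity (10.5 kb in 2 peaks). Genes in this paragraph were named after their values were seen. A gene-body RNAPOL2 peak without H3K27ac was present at 248 of the 1143 genes (21.7%), against 4.06% of genes that had a promoter peak and room for a past-end peak but lacked one.

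Nearly all genes with a past-end peak had polymerase and acetylation at the promoter. An RNAPOL2 promoter peak was present at 1102 of the 1143 genes, or 96.4% (95.2 to 97.3), against 53.5% of the 21938 protein-coding genes. An H3K27ac promoter peak was present at 96.7% (95.5 to 97.6), against 58.6% of all protein-coding genes. Among all genes with an RNAPOL2 promoter peak the acetylated share was 97.5%, so it was no higher at genes with a past-end peak. The reverse did not follow. Of 8956 genes with an RNAPOL2 promoter peak and at least 500 bp of the downstream window outside every promoter window, only 1101 had a past-end peak, which is 12.3% (11.6 to 13.0).

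That share was larger where the promoter peak scored higher. It was 3.01% in the lowest decile of promoter score (2.08 to 4.35), 9.72% in the fifth, 14.1% in the seventh and 24.0% in the highest (21.3 to 26.9). The median promoter score was 1500 for genes with a past-end peak and 835 for those without. Gene length showed no such slope, with shares of 11.6%, 13.4%, 13.0% and 11.1% from the shortest to the longest quartile. The share also moved with the room left by promoter windows, as the quartile with the least free sequence in its window had 5.27% and the others 13.0% to 15.6%. The windows of a gene's own TSSs count here too, so length and room are linked at short genes. Among genes with both, the score of the past-end peak was only loosely related to that of the promoter peak, with a Spearman correlation of 0.171 over 1102 genes. The promoter and past-end scores come from the same list and tumors, so depth and chromatin recovery are shared.

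**Figure D4:**
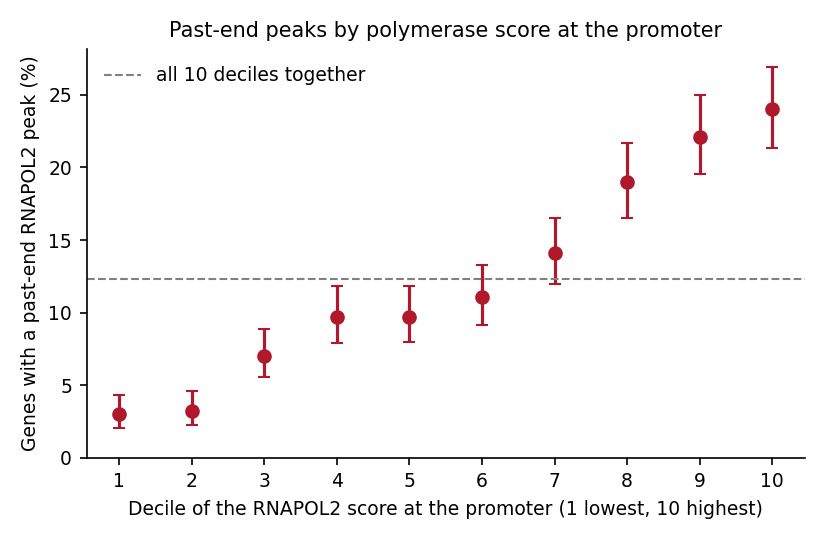
Share of genes with a past-end RNAPOL2 peak (y axis, %) in each decile of the RNAPOL2 score at the promoter (x axis, 1 lowest), among 8956 genes with room for such a peak; bars are Wilson 95% intervals and the dashed line is the 12.3% of all deciles. The share is 3.01% in the first decile and 24.0% in the tenth.

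Few past-end peaks overlapped a listed peak of the fusion. A V5 peak overlapped 6 of 1323, or 0.454% (0.208 to 0.986), against 20.9% of all RNAPOL2 peaks. The study counts the sites of the fusion in more than a single way, and the deposited V5 list is not the largest of those sets. Overlap with sites outside the list could not be seen, here, in the tests or in the V5 shares of promoters. In the same windows, 76 of the 309 acetylated RNAPOL2 peaks overlapped V5, which is 24.6%. The odds ratio was 0.0140 (0.00601 to 0.0324) and differed from 1 by Fisher's exact test, two-sided, with a Benjamini-Hochberg adjusted p of 1.16e-50 over the 3 tests made. Gene-body peaks without H3K27ac overlapped V5 in 17 of 1677 cases (1.01%), with an odds ratio of 0.445 (0.175 to 1.13) and an adjusted p of 0.140 by Fisher's exact test. The other 157 distal peaks without H3K27ac overlapped it in 2 cases (1.27%), with an odds ratio of 0.353 (0.0707 to 1.76) and an adjusted p of 0.205 by Fisher's exact test. The intervals of the latter 2 comparisons span 1, and their calls depended on the setting. With V5 over at least 50% of the peak the odds ratios were 0.126 and 0.0586 (adjusted p of 0.0312 for each, Fisher's exact test). With the upper 50% of V5 peaks by score, 4 of 1323 past-end peaks, 5 of 1677 gene-body peaks and 0 of 157 other distal peaks overlapped V5, which gave an odds ratio of 1.01 for the first and leaves no direction for the second. With a TSS window of 1 kb the odds ratio against the other distal peaks was 0.235 (adjusted p of 0.0442, Fisher's exact test). H3K27ac was part of the selection, so the first contrast sets unacetylated against acetylated polymerase peaks in the same windows. It was not particular to gene ends, as V5 overlapped 41.1% of the other acetylated distal RNAPOL2 peaks. Peaks were the units of these tests, which describe the lists and not tumors.

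The 6 past-end peaks with V5 lay after Trpv4 (score 168), a cation channel, Epb41l3 (107), a membrane skeleton protein, Ell2 (98), an elongation factor, Yipf4 (68), Tns1 (39), a focal adhesion protein, and Krt20 (39), a keratin. Of these, Krt20 had no RNAPOL2 promoter peak, and the peak after Tns1 lay 70 bp from an H3K27ac peak. The peak after Krt20 was named as 1 of 6 after its values were seen.

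**Figure D5:**
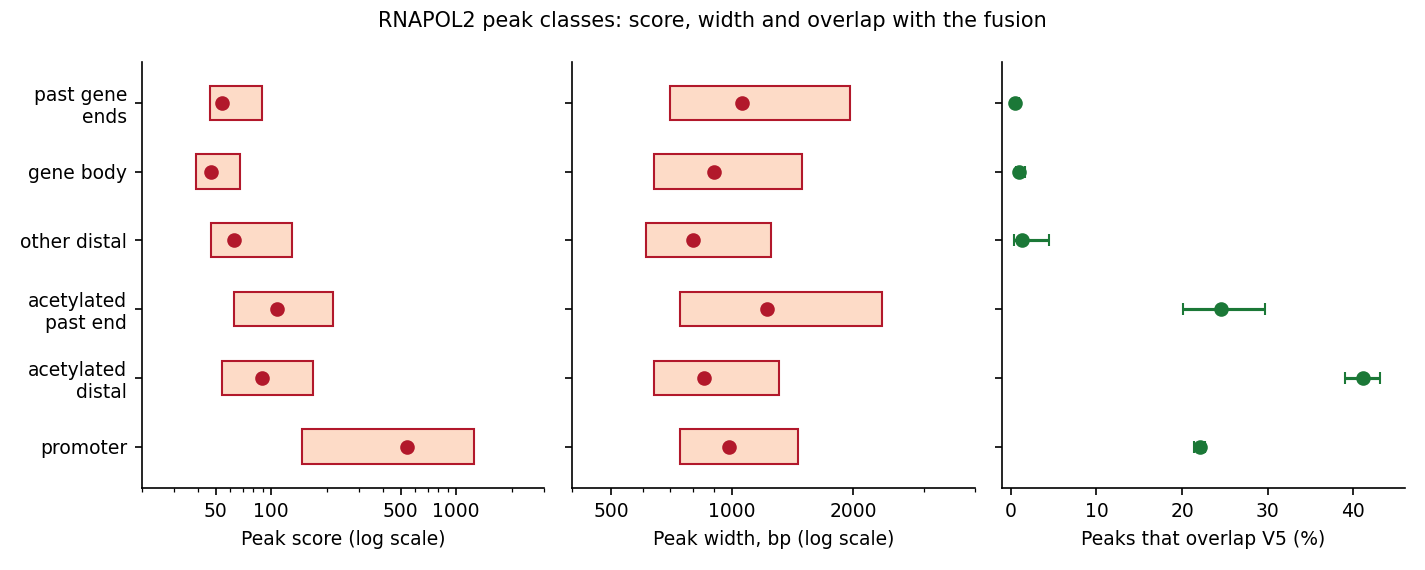
Median and quartiles of score (left) and width (middle), both on log axes, and share of peaks that overlap a V5 peak with Wilson 95% intervals (right), for 6 classes of RNAPOL2 peaks. Past-end peaks have a median score of 54 and 0.454% overlap with V5, against 107 and 24.6% for acetylated peaks past gene ends.

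At the promoters of the same genes the fusion was common. A V5 promoter peak was present at 485 of the 1143 genes, or 42.4% (39.6 to 45.3), against 29.7% of genes with an RNAPOL2 promoter peak. With only the upper 50% of V5 peaks by score these shares were 16.9% and 12.9%. Stated from the promoter, 17.7% of genes with V5 there had a past-end peak (16.3 to 19.2), and 9.92% of those without (9.20 to 10.7). Promoter score moved with this difference, since genes with V5 more often had high scores. In the upper part of promoter scores, split at the median, the shares were 21.2% of 1880 genes with V5 and 15.6% of 2622 without. In the lower part they were 9.93% of 856 and 5.75% of 3598. The difference was present in each part, and it was not tested.

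Gene lists were set beside the 12.3% background by their counts, and no list was tested against it. Of the peaks named from the lists, those of Cpsf7, Nelfa, Dnaja1, Hsph1, Eif2s2, Srsf5 and Rps10 overlapped another protein-coding gene, so their assignment is uncertain. The genes of the machinery that acts in this zone lay near the 12.3% background. Of 24 cleavage, polyadenylation and termination genes with a promoter peak and room, 3 (12.5%) had a past-end peak. They were Cpsf7, a subunit of cleavage factor I (score 54), Pabpn1, the nuclear poly(A)-binding protein (127), and Wdr82, which works with the termination phosphatase complex (127). Elongation factors had 3 of 14 (21.4%, 7.57 to 47.6). They were Nelfa of the pausing complex NELF (80), Ctr9 of the PAF complex (71) and Hexim1, an inhibitor of the kinase P-TEFb (54).

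The cytoskeleton and matrix lists had the largest shares of the 12 lists, each from few genes, and their excess was not tested. Of 18 cytoskeletal genes, 6 (33.3%, 16.3 to 56.3) had a past-end peak. The tropomyosin gene Tpm4 scored 306 over 6.98 kb, Tpm1 131, the actin crosslinker Flna 117, the annexin Anxa2 89, Tagln2 80 and the tubulin Tuba1c 63. Their promoter scores were high, at 3139, 2100, 1348, 2620, 2018 and 2378 in that order. In the deciles that hold these scores, 14.1% to 24.0% of all genes considered had a past-end peak. Of 15 matrix genes, 5 did (33.3%, 15.2 to 58.3). Beside Sparc these were the collagen genes Col6a2 (117), Col3a1 (94) and Col6a1 (54), and Thbs1 (47), a secreted thrombospondin. Their promoter scores were 4346 for Sparc but 629, 473, 344 and 590 for the other 4, below the median of 897 of all genes considered. At Thbs1, Col3a1 and Col6a2 the peak covered the annotated end.

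The stress, glycolysis, translation and RNA-binding lists had smaller shares, from 11 to 19 genes each. Immediate early genes had 4 of 19 (21.1%, 8.51 to 43.3). The orphan nuclear receptor Nr4a3 scored 369 in a peak of 4.28 kb that covered its end, its relative Nr4a2 had 2 peaks (80 and 54), and Egr1 (54) and Ier5 (38) had 1 each. Chaperones had 4 of 15 (26.7%, 10.9 to 52.0), led by the mitochondrial chaperonin Hspd1 (135), with Pdia4 (47), Dnaja1 (39) and Hsph1 (39). Glycolysis had 3 of 11 (27.3%, 9.75 to 56.6), with Ldha at 98, Pgam1 at 71 and Gpi1 at 63. Translation factors had 2 of 14 (14.3%, 4.01 to 39.9), with Eif2s2 at 119 and Eif3c at 39. Among RNA-binding proteins, a list that holds Ewsr1 and its relatives, 1 of 12 had a past-end peak (8.33%, 1.49 to 35.4). This was Srsf5, a splicing factor, whose peak of 7.47 kb and score 190 began 3.01 kb past the end and overlapped another protein-coding gene.

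Ribosomal protein genes, among the most transcribed of any cell, had 7 of 54 (13.0%, 6.42 to 24.4). Rps15a scored 294 over 4.94 kb, Rps24 scored 223 and Rps10 183. Replication-dependent histone genes, whose mRNAs end in a stem-loop and are not polyadenylated, had 2 of 38 (5.26%, 1.46 to 17.3). Their peaks, assigned to Hist1h2br (216) and Hist1h2bq (202), began 4.24 and 4.57 kb past the gene end. At a gene shorter than 3 kb, the window of its own TSS also covers sequence past its end, where no peak could be taken. The position of these 2 peaks is therefore only a description.

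Of 14 genes linked to the fusion in this tumor by the study or by family, a list drawn up with results for these tumors known, 3 had a past-end peak. Crem, a transcription factor of the family of ATF1, had a peak of 7.04 kb that reached 6.23 kb past the end with a score of 270, and its promoter carried a V5 score of 19716, near the top of a list whose highest score is 23478. Runx1, a transcription factor, had a score of 223 in a peak of 7.18 kb, of which 1.26 kb lay past the end. Atf1, the mouse gene of the fusion partner, had a weak peak of 950 bp with a score of 32.

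Past-end peaks were close to gene-body peaks in base composition and had less G and C than acetylated ones. In the central 500 bp, on either strand, AATAAA or ATTAAA was found in 57.8% of past-end peaks (55.1 to 60.5), 50.6% of gene-body peaks and 39.8% of acetylated past-end peaks. On the strand of the gene the hexamers were in 38.2% of past-end peaks, and on the opposite strand in 36.3%. GGGGG, a G-rich run of the kind tied to polymerase pausing, was in 53.5%, 49.6% and 64.4% of the 3 classes, and the median GC content was 47.4%, 47.8% and 52.8%. TGACGTCA, the palindrome bound by ATF and CREB proteins, was in 0.529% of past-end peaks (0.257 to 1.09), 0.417% of gene-body peaks and 2.59% of acetylated past-end peaks (1.32 to 5.02). The AP1 motif TGAGTCA was in 7.94%, 9.18% and 13.9%. GC content differed between the acetylated and the other 2 classes, and its part in these shares was not tested.

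The thresholds of the selection cut through similar peaks. The past-end peaks of Tbrg4 (score 43) and Zbtb11 (106) began 4988 bp past the end, and those after Hsbp1l1 (39) and Jmjd4 (97), at 5008 and 5014 bp, were left out. The peaks at Ulk3 (89) and P3h4 (190) lay 3004 bp from a TSS, while that at Pfkl (107), at 2999 bp, counted as a promoter peak. The peaks at Foxp4 (80) and Tns1 (39) lay 70 bp from H3K27ac, and that at Marveld2 (56) shared 40 bp with it and was left out. At the H3K27ac limit 56 past-end peaks (4.23%) had an H3K27ac peak within 1 kb, and 654 (49.4%) had none within 10 kb. The TSS limit cut more deeply. It left 10% of the past-end peaks within 3499 bp of a TSS, and their number was 1902 with a window of 1 kb and 894 with a window of 5 kb.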

How the data were processed

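ChIP-seq of 16 mouse tumor samples (4 each for V5, RNAPOL2, H3K27ac and input) was analyzed from 3 deposited peak lists. The authors aligned reads to mm10 with BWA-MEM (0.7.10-r789), removed duplicates with Samtools, called peaks with MACS2 (2.2.6) against input, with the broad option for H3K27ac, and removed denylisted regions. The deposited score of a peak is a whole number of a scale the authors do not describe. Whether samples were pooled before calling is not stated. The methods name more V5 and RNAPOL2 samples than the labels, so which samples entered a list is not known.

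Genes, ends and TSSs came from GENCODE vM21 (55413 genes, 21938 protein-coding, 141730 transcripts). Overlap meant at least 1 shared bp. Coordinates are 1-based. Shares have Wilson 95% intervals. Fisher's exact tests, two-sided, were adjusted over 3 comparisons by the Benjamini-Hochberg method, and intervals of odds ratios use the normal approximation, with 0.5 added to each cell where a count was 0. The functions were checked on simulated data. Statistics used scipy 1.17.1 and statsmodels 0.14.6, tables pandas 2.3.3 with numpy 2.4.6, and plots matplotlib 3.10.9, all in Python 3.11.15. Depth per sample is not in the lists.

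Named peaks were the 10 highest-scored, the 5 widest, those of the 5 genes with the most peaks, the 5 highest-scored with V5, those of genes on 12 lists, and those beside each threshold. Exceptions are stated beside their values, and not every gene this rule names is reported here. The peaks and lists were chosen with earlier results of these data known. Alternatives changed the TSS window and set, the downstream window, the overlap rule, the H3K27ac margin, the peak thresholds and the V5 overlap.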

Additional observations from a re-analysis of the deposited data

How the results depend on the processing

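Of 99 recomputed values under 11 alternatives, 70 stayed close to the reported value, meaning a count within 1.5 times of it, a share or median within its 95% interval, or an odds ratio with the same direction and side of the threshold. The number of past-end peaks was 1323 as reported, 1902 with a TSS window of 1 kb, 894 with 5 kb, and between 1038 and 1506 under the 6 other changes of window, TSS set, overlap rule or H3K27ac margin. With only the upper 50% of RNAPOL2 peaks by score, 42 past-end peaks remained, 0 of which overlapped V5 (upper Wilson bound 8.38%). An RNAPOL2 promoter peak was then present at 88.1% of genes, a V5 promoter peak at 52.4%, 0.472% of genes with room had a past-end peak, the median distance was 1029 bp and the median score 294. The low scores of past-end peaks are part of this setting's construction. The share of genes with room that had a past-end peak was 13.9% with a TSS window of 1 kb, 10.5% with 5 kb, 13.2% with TSSs of protein-coding genes only, 11.2% with 10 kb past the end, 11.4% when the middle base had to lie in the window, and 9.59% for peaks that start past the annotated end. The median distance under the 1 kb TSS window, 2 kb and 10 kb past the end, the middle base and the start past the end was 1101, 972, 1366, 1293 and 1649 bp. An RNAPOL2 promoter peak was present at 95% of genes with 10 kb and at 94.8% with the start past the end. A V5 promoter peak was present at 37.2% with the 1 kb TSS window, 39.4% with the start past the end and 16.9% with the upper 50% of V5 peaks. Overlap with V5 was 0.0756% when V5 had to cover at least 50% of the peak. The odds ratio against acetylated past-end peaks was between 0.00411 and 0.0290 (the latter with 0 of 42 peaks and 0.5 added to each cell), with an adjusted p of at most 0.000151 by Fisher's exact test under all 11 alternatives. Acetylation, which the selection used, separates the 2 classes under each of them, so this stability adds nothing on the position past gene ends. Against gene-body peaks it was 0.126 (adjusted p 0.0312, Fisher's exact test) with 50% coverage and 1.01 with the upper 50% of V5 peaks. Against the other distal peaks it was 0.235 with the 1 kb TSS window (adjusted p 0.0442) and 0.0586 with 50% coverage (adjusted p 0.0312), past the threshold by Fisher's exact test. With the upper 50% of V5 peaks 0 of 157 overlapped V5, so the 1.07 obtained there with 0.5 added to each cell gives no direction. The cause of these changes was not tested.

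No paired analysis was possible from the peak lists, because the replicate numbers of the labels have no values in them and there is 1 list per antibody. Leaving out a replicate could not be run from the lists for the same reason, and raw reads were not used. What read depth limits is unknown, and a weak past-end signal below the peak threshold would not be seen.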

Other observations

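Of the 1143 genes with a past-end peak, 41 (3.59%) had no RNAPOL2 promoter peak, and 23 of their 53 past-end peaks overlapped another protein-coding gene. The highest-scored, named after their values were seen, were at Cyp4f18 (488), Osr1 (319), Zan (314), Foxf1 (258), Aadac (221) and Vmn2r89 (212). The peaks at Osr1, a zinc finger transcription factor, and at Aadac, an esterase, overlapped no other protein-coding gene, and began 3.25 and 4.97 kb past the end. Whether polymerase there came from the named gene was not tested.

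Few past-end peaks lay on chromosome X. There were 8 of 1323 (0.605%, 0.307 to 1.19), against 349 of 20375 peaks (1.71%) in the whole RNAPOL2 list, and the difference was not tested. Flna held 1 of the 8. Chromosome Y held 0, which allows a share of up to 0.290%, the upper Wilson bound.

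Ends of noncoding genes were not part of the selection. Of the 157 other distal RNAPOL2 peaks without H3K27ac, 17 (10.8%) overlapped the 5 kb past the end of a gene that is not protein-coding.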
